A study of Mus musculus with 2 samples.

Results

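The visual cycle genes were followed through the cells of light-damaged and control mouse retinae. The 9 genes, Rpe65, Lrat, Rdh5, Rlbp1, Rgr, Rdh10, Rdh12, Abca4 and Rbp3, were chosen by name from 32285 genes in the count matrices, and all 9 were found. The single-cell RNA sequencing data came from 2 droplet libraries, 1 of dark-adapted control mice and 1 of mice after light damage. All mice carried 2 floxed Tgfbr2 alleles, were described as functionally wild type and were on a Balb-C/CD1 background. They were 6 to 9 weeks old and homozygous for the leucine variant of RPE65. Both groups spent 18 h in darkness. The light damage group then received white light of 5000 lx for 30 min and recovered for 6 h in dim light, whereas control mice received no bright light. Retinae of 3 to 5 mice were pooled before dissociation and removal of dead cells, so that each condition was 1 library of pooled animals. No difference between conditions therefore has a replicate check, no p-value is given, and the 95% intervals cover counting error only.

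The visual cycle returns the chromophore of rod and cone opsins to its light-sensitive form. Light turns 11-cis retinal into all-trans retinal, ABCA4 moves its conjugate across the disc membrane of the outer segment, and RDH12, an enzyme of the inner segment, can reduce it to all-trans retinol. RBP3 (IRBP) carries retinoids through the space between photoreceptors and the retinal pigment epithelium (RPE). In the RPE, LRAT esterifies all-trans retinol, RPE65 turns the ester into 11-cis retinol, and RDH5 oxidises this to 11-cis retinal, which RLBP1 (CRALBP) binds. RGR is an opsin of RPE and Müller cells, and RDH10 is a retinol dehydrogenase that also acts with RGR. Müller cells hold RLBP1 too, and are thought to run a further supply route for cones.

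All 9 are protein-coding genes in GRCm38. Among those of the RPE, Rpe65 spans chr3:159599175-159625321, Lrat chr3:82892579-82903973, Rdh5 chr10:128913593-128922888 and Rgr chr14:37034909-37048964. Rlbp1 spans chr7:79374870-79387048 and Rdh10 chr1:16105774-16133734. Among those of photoreceptors, Rdh12 spans chr12:79208914-79222665, Abca4 chr3:122044443-122180123 and Rbp3 chr14:33954003-33964216. Rdh5 shares 5007 bases with Bloc1s1 on the same strand, so that part of its count could belong to the neighbour. Bloc1s1 itself stood at 156 CPM (UMIs per 1000000 UMIs of the class) in control and 141 CPM in light-damaged RPE-like droplets.

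The sequence around the codon that differs in the leucine variant is shown because every animal of both groups carried it. The reference has a methionine codon there (capitals), at chr3:159623007-159623009 in a coding exon of Rpe65, read 5′ to 3′ on the plus strand.
Rpe65 codon: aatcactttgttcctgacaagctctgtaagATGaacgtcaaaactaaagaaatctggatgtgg
Promoters are shown for 4 genes that stand for the 3 cell types, Rpe65 and Rgr for RPE, Rbp3 for photoreceptors and Rlbp1 for RPE and Müller cells. They run from 250 bases before to 50 bases after the RefSeq start (GRCm38.p6), and the table held 8 of the 9 genes, without Rdh10. Capitals mark TAATCC or TAATCT, forms of the motif bound by the photoreceptor and RPE homeodomain factors CRX and OTX2, or their reverse complements GGATTA and AGATTA. The first is Rpe65, chr3:159598931-159599230, plus strand.
Rpe65: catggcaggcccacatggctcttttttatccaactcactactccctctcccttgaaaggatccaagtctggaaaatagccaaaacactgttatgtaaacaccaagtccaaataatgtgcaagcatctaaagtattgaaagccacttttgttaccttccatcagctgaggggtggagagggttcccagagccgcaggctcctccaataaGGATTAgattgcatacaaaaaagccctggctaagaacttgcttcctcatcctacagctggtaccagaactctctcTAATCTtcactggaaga
The Rgr promoter lies at chr14:37048965-37049264 on the minus strand.
Rgr: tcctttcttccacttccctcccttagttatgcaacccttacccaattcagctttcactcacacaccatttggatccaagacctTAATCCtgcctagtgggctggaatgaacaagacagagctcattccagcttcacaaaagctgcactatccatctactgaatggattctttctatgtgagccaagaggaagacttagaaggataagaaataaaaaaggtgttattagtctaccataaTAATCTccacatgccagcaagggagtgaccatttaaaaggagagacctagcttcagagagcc
The Rbp3 promoter lies at chr14:33953753-33954052 on the plus strand.
Rbp3: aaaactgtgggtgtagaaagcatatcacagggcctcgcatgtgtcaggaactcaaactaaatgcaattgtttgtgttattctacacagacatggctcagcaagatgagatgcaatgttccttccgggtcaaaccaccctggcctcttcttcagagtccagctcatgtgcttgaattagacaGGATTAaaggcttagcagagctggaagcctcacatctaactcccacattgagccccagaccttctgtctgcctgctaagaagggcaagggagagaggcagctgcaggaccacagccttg
The Rlbp1 promoter lies at chr7:79386978-79387277 on the minus strand.
Rlbp1: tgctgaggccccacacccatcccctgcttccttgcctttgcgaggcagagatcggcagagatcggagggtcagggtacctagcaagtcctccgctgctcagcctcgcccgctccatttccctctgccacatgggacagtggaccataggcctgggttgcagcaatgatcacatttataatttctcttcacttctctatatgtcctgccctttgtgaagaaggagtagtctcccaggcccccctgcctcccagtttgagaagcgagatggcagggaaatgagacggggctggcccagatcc
TAATCC was found on either strand in 4 of 8 promoters (Rpe65, Rgr, Rbp3 and Abca4), and in 7.06% of all 32851 promoters. TAATCT was found in 3 of 8 (Rpe65, Rgr and Rdh12), against 8.19% of all. The E-box CACGTG was found in 0 of 8, against 7.15% of all. Measured to its first base, the match nearest upstream of the start was at -42 in Rpe65, -69 in Rbp3, -58 in Abca4, -12 in Rgr and -100 in Rdh12. Rpe65 had a further match at 33 and Rgr one at -167. Matches are descriptions of the letters only, and the windows without a match say nothing about binding.

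The libraries held 30605284 UMIs (control) and 54413601 UMIs (light damage). After filtering, 3669 and 5593 droplets remained, with a median of 2848 and 4480 UMIs, and 7 barcodes were kept in both. Unspliced UMIs made up 18.7% of the control and 32.7% of the light damage library. Xist, which is read from the inactive X chromosome of females, stood at 411 CPM in control and 0.132 CPM in light-damaged droplets, so that sex and light exposure cannot be told apart. Classes were named from marker genes that exclude the 9 genes, and the 9 genes took no part in clustering. The RPE-like class held 157 control and 289 light damage droplets, with UMIs of 11 and 12 of 12 RPE markers (summed 123071 and 102152 CPM). Best1 was at 0 in the control class. The Müller-like class held 39 and 27 droplets with UMIs of 12 of 12 markers in both (28911 and 12277 CPM), and the cone-like class held 210 and 105 droplets with UMIs of 11 of 11 markers. Rods were split by their share of unspliced UMIs. Those under 20% were 2355 control and 1778 light damage droplets, and those over 30% were 699 and 3093. The 127 and 57 rods between these limits were left out.

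Rpe65, Lrat, Rdh5 and Rgr were concentrated in RPE-like droplets, where their steps of the cycle take place. RPE-like droplets made up 4.28% of the control and 5.17% of the light damage droplets. Yet they held 99.2% and 98.6% of all Rpe65 UMIs of kept droplets, and 99.6% and 98.5% of those of Lrat. For Rdh5 they held 98.9% and 98.2%, and for Rgr 99.2% and 98.5%. Most UMIs of the photoreceptor genes lay in rods, but rods were also 86.7% and 88.1% of the droplets. Rods together held 91.4% and 92.8% of the Rdh12 UMIs, 90.1% and 86.9% of those of Abca4, and 90.8% and 85.8% of those of Rbp3. These shares were near the share of droplets, and those of Abca4 and Rbp3 in light damage were below it. Another 8.01% and 10.2% of the Rbp3 UMIs lay in cone-like droplets, which were 5.72% and 1.88% of all droplets.

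Rlbp1 and Rdh10 were shared between cell types. RPE-like droplets held 77.9% and 84.5% of the Rlbp1 UMIs, and Müller-like droplets, which were 1.06% and 0.483% of all droplets, held 13.7% and 6.38%. Of the Rdh10 UMIs, RPE-like droplets held 87.0% in control and 72.7% in light damage, and rods held 10.4% and 24.3%. Rdh10 was thus the gene whose distribution over cell types differed most between the libraries.

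**Figure D1:**
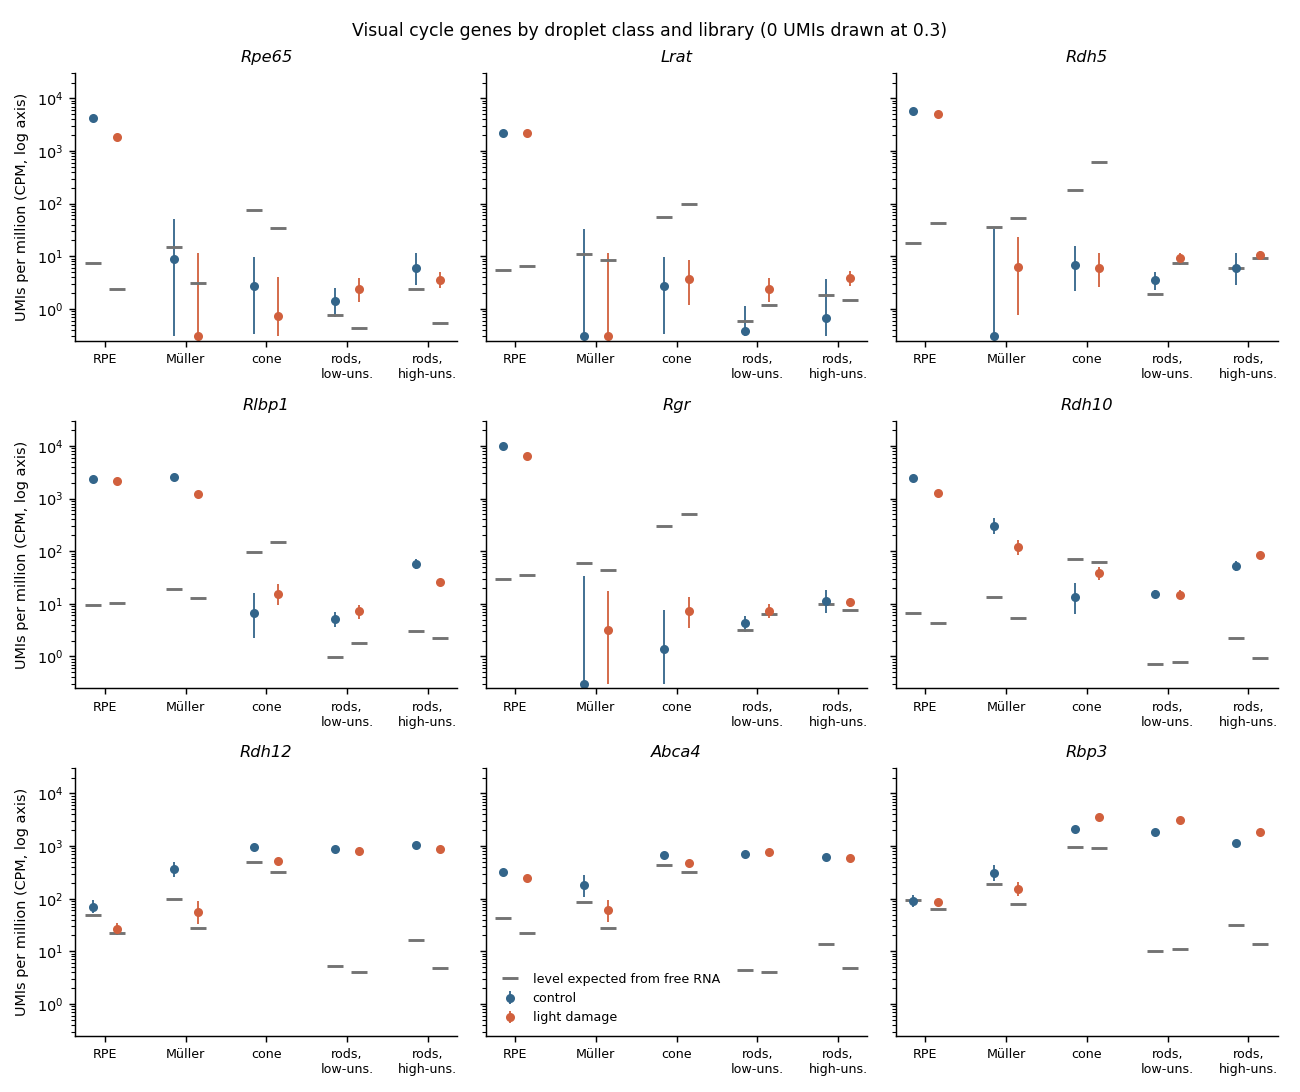
Level of each of the 9 genes in CPM (log axis) in 5 droplet classes of the control and the light damage library, with 95% counting intervals; grey dashes mark the level expected from free RNA. Rpe65, Lrat, Rdh5 and Rgr stand high in RPE-like droplets only, whereas Rdh12, Abca4 and Rbp3 stand high in rods and cones.

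Free RNA from broken cells gives UMIs in droplets that do not express a gene. Its profile was read from barcodes under 50 UMIs and scaled to each class by genes of another cell type. In RPE-like droplets it accounted for an estimated 8.43% of UMIs in control and 3.93% in light damage. Of the 9 genes, 7 lay above the free RNA level in RPE-like droplets of both libraries, the exceptions being Rdh12 and Rbp3. Rbp3 stood at 91.2 CPM in control, where free RNA alone would give 94.5 CPM, and at 86.1 CPM in light damage, where it would give 62.4 CPM. Abca4 stood above it, with 316 CPM (275 to 360) against an expected 42.6 CPM in control and 243 CPM (223 to 264) against 22.1 CPM in light damage.

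In low-unspliced rods, 5 of the 9 genes lay above the free RNA level, Rdh12, Abca4, Rbp3, Rdh10 and Rlbp1. That level was scaled by RPE genes in rods, so it does not measure Müller RNA. Rlbp1 stood at 5.16 and 7.18 CPM in these rods and the summed Müller markers at 241 and 188 CPM. The part of Müller RNA in the Rlbp1 values was not tested. Rpe65 had UMIs in 0.425% of control and 0.562% of light-damaged low-unspliced rods. This compares with 82.8% and 83.7% of RPE-like droplets. Levels of Rpe65 there were 1.42 and 2.39 CPM, with 0.779 and 0.434 CPM expected from free RNA. Of the other RPE genes in low-unspliced rods, Rgr stood at 4.25 and 7.34 CPM against 3.15 and 6.31 CPM expected, and Lrat had 3 and 15 UMIs. In high-unspliced rods 6 genes lay above it, the same 5 and Rpe65 at 6.10 and 3.59 CPM from 9 and 38 UMIs.

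The next question was how the RPE genes differed after light damage. Rpe65, the isomerase of the cycle, was lower, whereas Lrat, which makes its substrate, was not. Rpe65 stood at 4207 CPM (4056 to 4363, 2906 UMIs) in control and 1883 CPM (1827 to 1939, 4397 UMIs) in light-damaged RPE-like droplets. The intervals were far apart, and the ratio was 2.23-fold, with a log2 ratio of -1.16 (-1.23 to -1.09). Lrat stood at 2176 CPM (2067 to 2289) in control and 2217 CPM (2157 to 2279) in light damage. Its intervals overlapped, and the log2 ratio was 0.03 (-0.06 to 0.11).

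A gene was called where it differed at least 2-fold with the counting interval on that side, among genes with at least 50 UMIs over both libraries. By this rule 2 of the 9 genes were called lower in RPE-like droplets, Rpe65 and Rdh12, and 0 higher. Of 6275 genes tested in this class, 4.62% were called lower and 10.3% higher. The median log2 ratio of the 9 genes was -0.38, against 0.03 over all genes tested. Rdh12 stood at 70.9 CPM in control and 26.5 CPM in light damage, near the 49.8 and 22.1 CPM expected from free RNA, and its log2 ratio was -1.42.

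Summed rod markers stood at 7983 and 2843 CPM (12 of 12 with UMIs in both), and summed Müller markers at 11132 and 11427 CPM (7 and 8 of 12 with UMIs), with the Müller genes Aqp4, Kcnj10, Ptn and Gpr37 at 0 in both. Their part in the values of the class was not tested.

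The other RPE genes lay between Rpe65 and Lrat without reaching 2-fold. Rdh10 came closest, with 2470 CPM (2354 to 2590) in control and 1302 CPM (1256 to 1349) in light damage. Its log2 ratio was -0.92 (-1.01 to -0.84). The opsin Rgr stood at 9778 CPM (9547 to 10014) and 6544 CPM (6440 to 6648), with a log2 ratio of -0.58 (-0.62 to -0.54).

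The remaining genes of this cell type differed little. Rdh5, which makes the final 11-cis retinal, stood at 5817 CPM (5639 to 6000) in control and 5024 CPM (4933 to 5115) in light damage, with a log2 ratio of -0.21. Rlbp1, which binds that product, stood at 2344 CPM (2231 to 2461) and 2155 CPM (2096 to 2216), with a log2 ratio of -0.12. For Abca4 the log2 ratio was -0.38 (-0.61 to -0.15).

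**Figure D2:**
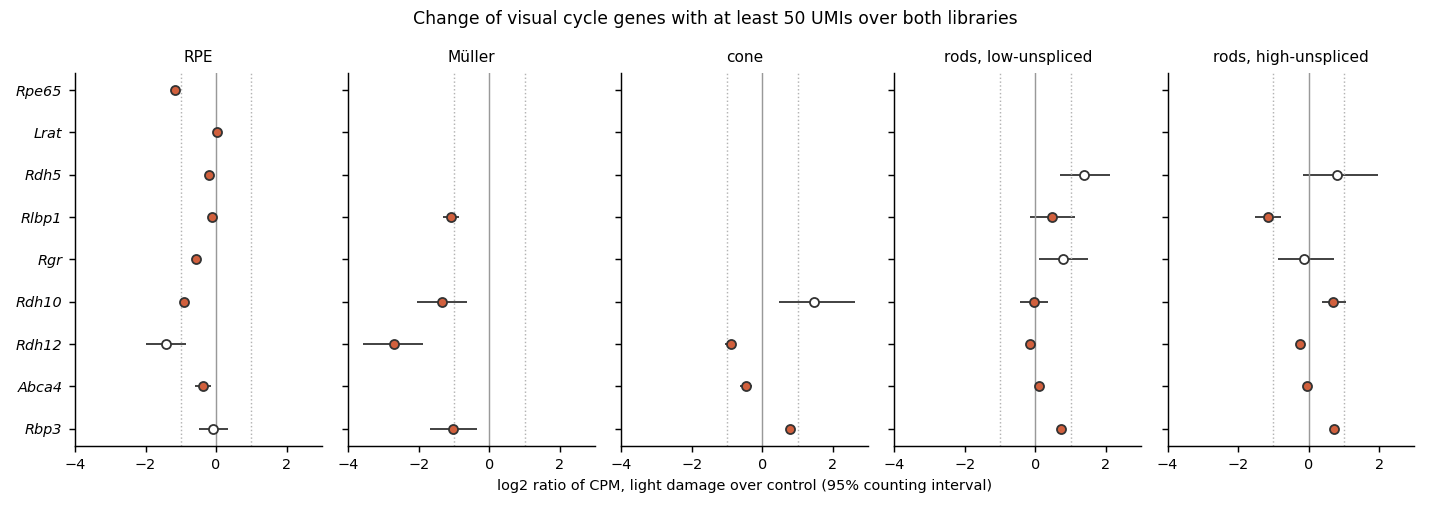
Log2 ratio of CPM, light damage over control, for the genes with at least 50 UMIs in each class, with 95% counting intervals; dotted lines mark 2-fold, and open points lie at or under the free RNA level in a library. In RPE-like droplets Rpe65 lies at -1.16 and Lrat at 0.03, and in both rod classes Rbp3 lies at 0.73.

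The same order was seen droplet by droplet. The median RPE-like droplet held 3903 CPM of Rpe65 in control (quartiles 1528 and 5824) and 1645 CPM in light damage (quartiles 635 and 2842). The spread among droplets was wide, and the quartile ranges overlapped. For Lrat the medians were 1735 and 1963 CPM. When every droplet was thinned to 1400 UMIs, 81.5% (74.6 to 87.3) of control RPE-like droplets kept a Rpe65 UMI. In light damage 74.4% (69.0 to 79.3) did, and the intervals overlapped. For Rdh10 the thinned shares were 89.2% (83.2 to 93.6) and 73.0% (67.5 to 78.0), against 95.5% and 94.5% before thinning. Thinned shares of Lrat were 79.6% (72.5 to 85.6) and 84.8% (80.1 to 88.7), and these intervals overlapped too.

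Unspliced UMIs, which come from introns, gave a second reading for a few of these genes. Rpe65 had 515 unspliced UMIs in control and 759 in light-damaged RPE-like droplets, 15.1% and 14.7% of its UMIs. Their log2 ratio was -1.24 (-1.40 to -1.07), and the interval of the spliced reading lay inside this one. Those of Rgr, 29 and 47, gave a log2 ratio of -1.10 (-1.80 to -0.38), and those of Rdh5, 22 and 123, gave 0.69 (0.02 to 1.41). Lrat had 0 and 1 unspliced UMIs and Rdh10 had 0 and 4, too few for a comparison. Abca4 had 29 and 107, which were 11.7% and 15.9% of its UMIs.

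**Figure D3:**
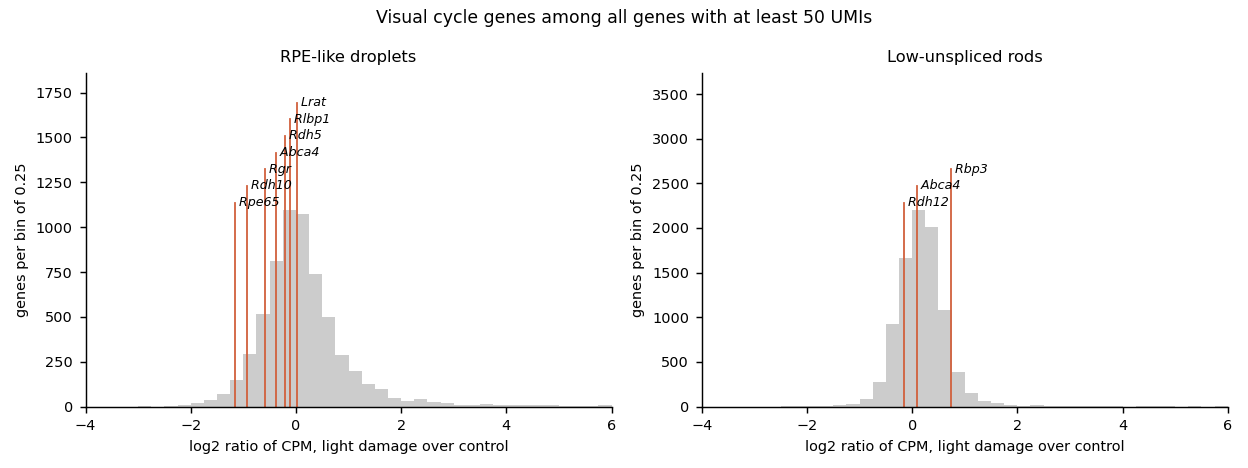
Histograms of log2 ratios (light damage over control, bins of 0.25) over all genes with at least 50 UMIs, for RPE-like droplets and low-unspliced rods. Vertical lines mark visual cycle genes above the free RNA level. In the rods only Rdh12, Abca4 and Rbp3 are marked, and Rlbp1 and Rdh10, also above that level, are not. Rpe65 and Rdh10 lie at the lower flank of the left histogram (-1.16 and -0.92), and Rbp3 at the upper flank of the right one (0.73).

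RPE-like droplets fell into sub-clusters that differed in their visual cycle genes. At the finer clustering (resolution 2) the first was led by Enpp2 and Itgb8 besides Rpe65 and Rgr, and held 111 control and 135 light damage droplets. The second was led by Chil1 and Serpina3n, an acute-phase serine protease inhibitor, and held 0 control and 120 light damage droplets. The third was led by the melanosome genes Pmel and Mlana, and held 46 and 34 droplets. Estimated free RNA was 3.79% and 3.61% in the first, 3.11% in the second, and 27.6% and 8.36% in the third. Its part in the values of the third was not tested.

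Rpe65 was lower after light damage in each sub-cluster that both libraries shared. In the Enpp2-led droplets it stood at 5088 CPM in control and 2343 CPM in light damage, a log2 ratio of -1.12 (-1.20 to -1.04). In the Pmel-led droplets it stood at 572 and 251 CPM, from 77 and 69 UMIs, a log2 ratio of -1.19 (-1.68 to -0.70). The Chil1-led droplets held 1898 CPM. They lay below both readings of the Enpp2-led droplets and above those of the Pmel-led ones.

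Rdh10 had a different pattern over the sub-clusters. In the Enpp2-led droplets it stood at 2804 CPM in control and 1913 CPM in light damage, a log2 ratio of -0.55 (-0.65 to -0.45). The Chil1-led droplets, found in light damage only, held 772 CPM, the lowest of all readings. In the Pmel-led droplets Rdh10 stood at 1091 and 1376 CPM, with a log2 ratio of 0.33 (0.06 to 0.62). With the Chil1-led droplets left out, the log2 ratio of Rdh10 over the class was -0.46, and that of Rpe65 was -1.17.

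Rgr differed most in the Pmel-led droplets. It stood there at 2034 CPM (274 UMIs) in control and 127 CPM (35 UMIs) in light damage, a log2 ratio of -4.0 (-4.55 to -3.49). In the Enpp2-led droplets it stood at 11654 and 7736 CPM, a log2 ratio of -0.59, and in the Chil1-led ones at 7121 CPM. Lrat went the other way in the Pmel-led droplets, with 416 and 744 CPM and a log2 ratio of 0.84 (0.41 to 1.29), whereas in the Enpp2-led droplets it stood at 2602 and 2305 CPM. Over all 3 sub-clusters Rdh5 ranged from 3141 to 6386 CPM and Rlbp1 from 1530 to 2541 CPM.

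**Figure D4:**
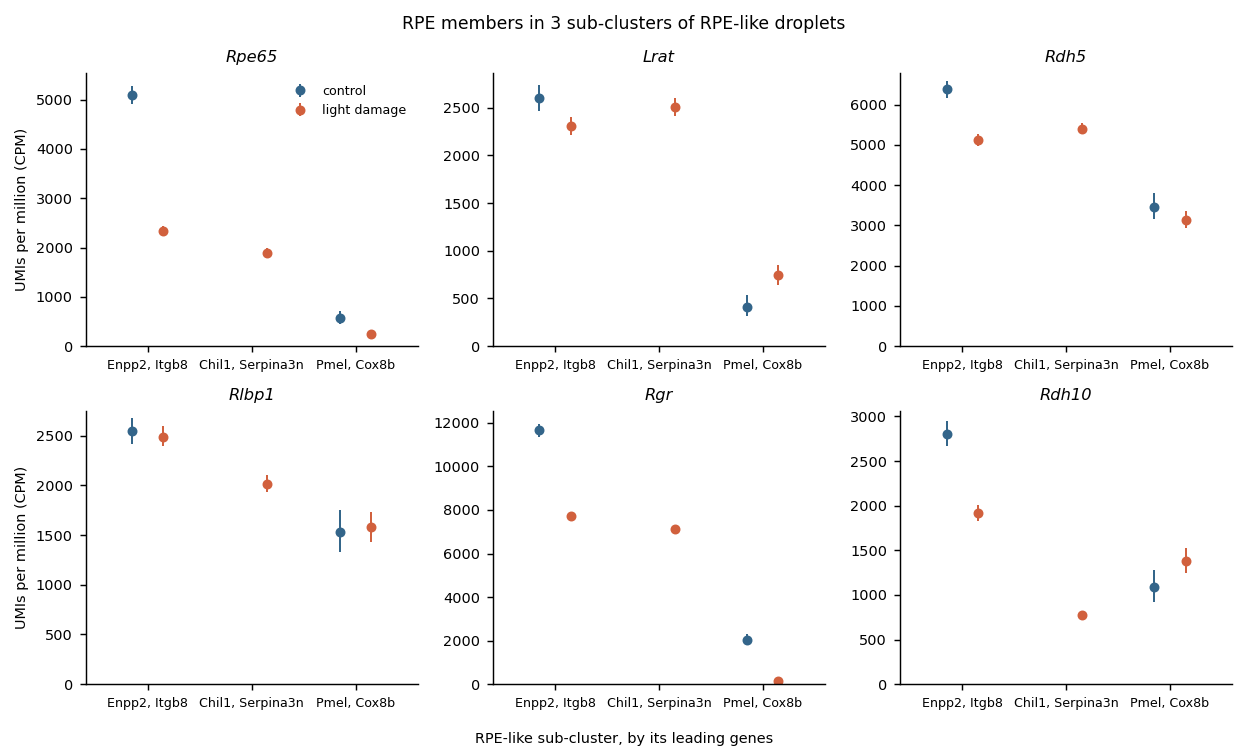
CPM (linear axis from 0) of 6 RPE genes in 3 sub-clusters of RPE-like droplets named by leading genes, for control and light damage with 95% counting intervals. Rpe65 falls from 5088 to 2343 CPM in the Enpp2-led droplets, and Rdh10 has its lowest value, 772 CPM, in the Chil1-led droplets of the light damage library.

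In Müller-like droplets, Rlbp1 had the most UMIs of the 9 genes. It stood at 2557 CPM (2268 to 2871, 285 UMIs) in control and 1196 CPM (1079 to 1322, 380 UMIs) in light damage, a log2 ratio of -1.10 (-1.32 to -0.87). A total of 35 of 39 control and 27 of 27 light-damaged droplets held it. Its level in control Müller-like droplets was close to that in RPE-like droplets, where it stood at 2344 CPM. Rdh10 stood at 305 CPM (211 to 426) and 120 CPM (84.6 to 164), with a log2 ratio of -1.35 (-2.06 to -0.64). The limit that a count of 0 allows, 3 UMIs, was 26.9 CPM in control and 9.44 CPM in light damage. The opsin Rgr had 0 and 1 UMIs. Rpe65 (1 and 0 UMIs), Lrat (0 and 0) and Rdh5 (0 and 2) were likewise under this limit. The reading of Rgr depends on 84 droplets of the cluster that were left out. Rgr was among their leading genes, and with them put back it was called higher.

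Of the 9 genes, 4 could be tested in this class, and all 4 were called lower, Rlbp1, Rdh10, Rdh12 and Rbp3. Of all 1673 genes tested, 13.4% were called lower and 27.5% higher. Over the 224 genes with at least 50 UMIs in each library the median log2 ratio was -0.64, whereas over all 1673 genes tested it was 0.20. Relative to the former median Rlbp1 lay at -0.46, and Rdh12 was the 1 gene of the cycle called. Rdh12 stood at 368 and 56.6 CPM and Rbp3 at 314 and 154 CPM, with Abca4 at 179 and 59.8 CPM from too few UMIs for a call. These are photoreceptor genes, and rod transcripts were also lower in the light-damaged Müller-like droplets, with the summed rod markers at 16721 and 3912 CPM. Their part in these values was not tested.

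The droplets of this class differed between libraries. Median depth was 2493 UMIs in control and 22134 UMIs in light damage, and 26 of the 27 light-damaged droplets came from a sub-cluster led by Tnfaip6 and Lcn2 that held 0 control droplets. The Müller enzyme Glul (glutamine synthetase) stood at 9598 CPM in control and 1762 CPM in light damage. Thinned to 1400 UMIs, 76.9% (60.7 to 88.9) of control and 63.0% (42.4 to 80.6) of light-damaged droplets kept a Rlbp1 UMI, so that the shares overlapped. With a mitochondrial limit of 5%, only 1 light-damaged droplet kept the name, so that the values of this class depend on the filter.

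Rods held the genes that handle all-trans retinal and its transport. Here Rbp3 was higher after light damage in both rod classes, while Rdh12 and Abca4 differed little. In low-unspliced rods Rbp3 stood at 1849 CPM (1819 to 1879) in control and 3077 CPM (3034 to 3121) in light damage, a log2 ratio of 0.73 (0.70 to 0.77). In high-unspliced rods it stood at 1119 CPM (1066 to 1174) and 1860 CPM (1834 to 1886), again a log2 ratio of 0.73 (0.66 to 0.81). The intervals lay far apart in both classes, and neither ratio reached 2-fold. Thinned to 1400 UMIs, 77.0% of control and 95.6% of light-damaged low-unspliced rods kept a Rbp3 UMI.

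Rdh12 stood at 891 CPM (870 to 912) in control and 799 CPM (777 to 822) in light-damaged low-unspliced rods, a log2 ratio of -0.16. In high-unspliced rods it stood at 1068 CPM (1016 to 1122) and 896 CPM (878 to 915), a log2 ratio of -0.25. Abca4 stood at 719 CPM (700 to 738) and 767 CPM (745 to 789) in low-unspliced rods, and at 620 CPM (581 to 662) and 600 CPM (585 to 615) in high-unspliced rods. Its log2 ratios were 0.09 and -0.05.

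By the call rule, 1 of the 9 genes was higher and 0 lower in low-unspliced rods, where 3.64% of 9015 genes were called higher and 0.699% lower. This was Rdh5, which rose from 3.48 to 9.10 CPM while free RNA alone would give 1.91 and 7.56 CPM. With free RNA subtracted its log2 ratio was -0.039. In high-unspliced rods 0 genes were higher and 1, Rlbp1, was lower, where 6.72% of 10405 genes were called higher and 3.2% lower. Rlbp1 stood at 57.6 CPM (85 UMIs) in control and 25.7 CPM (272 UMIs) in light damage, a log2 ratio of -1.16 (-1.52 to -0.79). Over 50% of the UMIs of these rods were unspliced, and Rlbp1 had 0 and 3 unspliced UMIs there. Unspliced UMIs were 25.4% and 21.2% of Rlbp1 in Müller-like droplets, and 0.369% and 0.297% in RPE-like droplets. The Müller marker Glul stood at 125 and 59.0 CPM in high-unspliced rods and the summed Müller markers at 323 and 192 CPM. The part of RNA from other cell types in the Rlbp1 values was not tested. Over the alternatives run the Rlbp1 ratio ranged from -2.53 to -0.61.

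Unspliced shares set the photoreceptor genes apart. In high-unspliced rods Abca4, a long gene, had 84.0% unspliced UMIs in control and 81.4% in light damage (4794 and 27801 UMIs). Rdh12 had 25% and 22.1%, and Rbp3 had 9.24% and 7.49%. The unspliced UMIs of Rbp3 gave a log2 ratio of 0.75 (0.52 to 0.99), beside 0.73 for the spliced ones. Those of Abca4 gave 0.04.

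Rod clusters showed which droplets carried these values. In the cluster led by Gstp1, which held 77.2% of control but 26.3% of light-damaged low-unspliced rods, Rbp3 stood at 1650 and 2669 CPM (log2 ratio 0.69). In the cluster led by A930006I01Rik, which held 22.0% and 73.2%, it stood at 2116 and 3174 CPM (0.59). In the Mir124a-1hg-led cluster of high-unspliced rods, with 16.6% and 55.9%, it stood at 1060 and 1939 CPM (0.87). Rbp3 was therefore higher in light damage in each of the 3 clusters compared. Rdh12 stood at 1015 and 803 CPM in the A930006I01Rik-led cluster, a log2 ratio of -0.34.

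The high-unspliced rods of the control library lay mainly (75.5%) in a cluster led by Xist and Tsix, whose Rbp3 level was 1127 CPM. Those of light damage lay partly in clusters led by the immediate early genes Jun (35.1%) and Egr1 (7.50%), with Rbp3 at 1887 and 764 CPM. The Egr1-led rods thus had the lowest Rbp3 level of the rod clusters with at least 50 droplets in a library, control included.

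Rdh10, although low in rods, varied between these clusters. Over all high-unspliced rods it stood at 52.9 CPM (41.8 to 66.0) in control and 86.0 CPM (80.5 to 91.7) in light damage, a log2 ratio of 0.70 (0.37 to 1.05). The Jun-led rods held 127 CPM (117 to 137), and the Egr1-led rods 54.8 CPM (35.8 to 80.4). Within the Mir124a-1hg-led cluster, shared by both libraries, it stood at 76.3 CPM (19 UMIs) and 44.6 CPM (214 UMIs). The direction there was the opposite, with a log2 ratio of -0.77 (-1.45 to -0.015). In low-unspliced rods Rdh10 stood at 15.5 and 15 CPM, and the intervals overlapped.

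**Figure D5:**
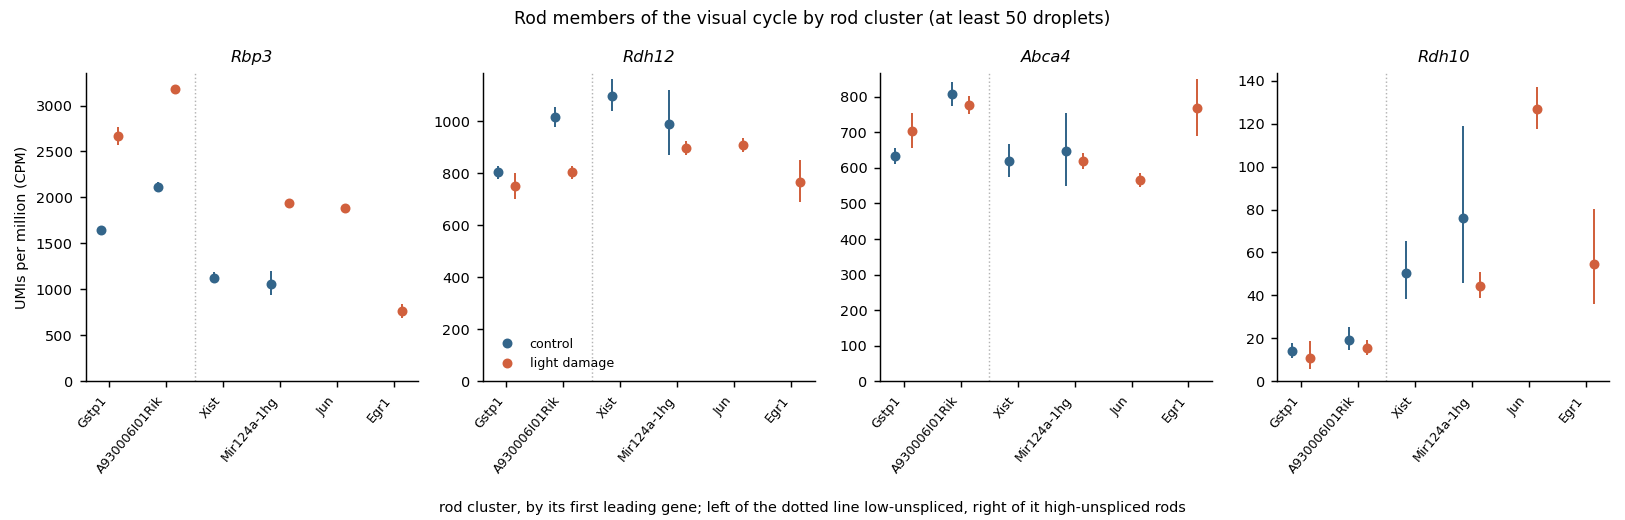
CPM of visual cycle genes in the rod clusters with at least 50 droplets of a library, named by their first leading gene, for control and light damage with 95% counting intervals. Rbp3 is higher in light damage in each cluster with at least 50 droplets of both libraries. Rdh10 is highest, at 127 CPM, in the Jun-led rods of the light damage library.

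Cone-like droplets also held Rbp3, Rdh12 and Abca4 above the free RNA level in both libraries, but carried many rod transcripts. Summed rod markers stood at 82054 CPM in control and 41338 CPM in light-damaged cone-like droplets, and rod genes gave an estimated free RNA share of 85.8% and 56.9%. RPE genes gave an estimate of 1.00% and 0.347% in the same droplets. Rbp3 stood at 2073 CPM (1970 to 2179) in control and 3568 CPM (3468 to 3670) in light damage, a log2 ratio of 0.78 (0.70 to 0.87). Rdh12 stood at 958 and 514 CPM, a log2 ratio of -0.90 (-1.05 to -0.75), and Abca4 at 671 and 485 CPM, a log2 ratio of -0.47. The part of rod RNA in these values was not tested. Over the alternatives run, the log2 ratios ranged from -0.34 to 1.65 for Rbp3, from -2.82 to 1.99 for Rdh12 and from -2.13 to 0.76 for Abca4, so that no direction held throughout in these droplets.

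Droplets whose rod genes lay under 50% of the free RNA level numbered 63 in light damage and 4 in control. In the 63, Rbp3 stood at 3487 CPM, Rdh12 at 375 CPM and Abca4 at 299 CPM, with the cone arrestin Arr3 at 4203 CPM. Between libraries these 4 control droplets were too few to compare. By the call rule, 1 of the 9 genes was higher and 0 lower in cone-like droplets, where 14.4% of 6209 genes were called higher and 3.58% lower. It was Rdh10, from 10 to 51 UMIs (13.6 and 37.7 CPM, log2 ratio 1.47, 0.48 to 2.62). Scaled by rod genes, free RNA would give 69.5 and 62.2 CPM, and scaled by RPE genes 0.811 and 0.379 CPM.

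Other retinoid genes were read from a list of 50, of which 49 were in the matrices. In RPE-like droplets 16 reached 50 UMIs, 1 of them higher and 0 lower. This was Dgat1, an acyltransferase that can esterify retinol, with 6 UMIs in control and 96 in light damage (8.69 and 41.1 CPM, log2 ratio 2.24, 1.07 to 3.72). The median of these 16 genes was -0.06. Picked with its values in view, the retinol transporter Stra6 stood at 1249 and 1267 CPM, and like Lrat it did not reach 2-fold.

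In rods more of the list was measured. Of 19 genes in low-unspliced rods, 0 were lower, and the fatty acid transport protein Slc27a4 was called higher (log2 ratio 1.01). Of 22 in high-unspliced rods, 2 were higher and 3 lower. The retinol dehydrogenase Rdh11 stood at 37.3 CPM in control and 120 CPM in light damage, a log2 ratio of 1.69 (1.30 to 2.11). The nuclear receptor Rxra was also higher (1.1), and the dehydrogenases Dhrs7 (-1.27) and Dhrs4 (-1.26) and the receptor Rarb (-1.17) were lower. Rdh11 and Rdh12 reduce the same retinal, and their ratios in these rods had opposite signs. Rdh11 was not limited to rods, and stood at 84.0 CPM in control and 80.9 CPM in light-damaged RPE-like droplets.

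Of 9 list genes in cone-like droplets, Slc27a4 was higher (1.47) and Dhrs7 lower (-1.71). Of 5 in Müller-like droplets, Rrh (peropsin) was called lower, with a log2 ratio of -1.41 (-2.19 to -0.63).

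The genes whose profile over 12 combinations of class and library was most like that of each cell type's gene were named by Pearson correlation of log2(CPM + 10). These profiles share libraries and depth, and r is a description only. For Rpe65 they were Gsta2, Fap and Cntnap4, each with r of 0.996. For Rlbp1 they were Cryab (0.982), Vat1l (0.979) and Spon1 (0.978). For Rbp3 they were Slc17a7 (0.980), Cds1 (0.979) and Map1b (0.976), and for Rdh10 Cald1 (0.981), Serpinb6a (0.975) and Csad (0.962).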

How the data were processed

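Retinal cells were encapsulated with the 10x Genomics 3′ chemistry. Per the labels and the study's methods, the authors demultiplexed with Cell Ranger 7.0.1 and quantified with salmon 1.10.1 and alevin-fry 0.8.1 against mm10 and its introns, and deposited unfiltered UMI counts per barcode in spliced, unspliced and ambiguous blocks for 32285 genes, counted on the forward strand. Cell type labels of the authors were not used here. From these counts, levels were computed as spliced plus ambiguous UMIs of a gene per 1000000 such UMIs of a class and library (CPM). Values are 3′ tag counts, so where genes are ranked by UMIs or a gene is named low, this describes the counts only.

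Droplets above the inflection of the barcode ranks (1464 UMIs in control, 1614 in light damage) and under 10% mitochondrial UMIs were kept, and the barcodes with the highest Scrublet scores were left out (0.8% per 1000 droplets, 114 and 276). Clustering used scanpy 1.11.5 and the Leiden method (leidenalg 0.10.2) at resolution 1 on 1987 variable genes, 50 components and 15 neighbours, without the 9 genes and the retinoid list. A cluster was named at a marker score of at least 0.3 with at least 3 markers in at least 10% of its droplets, and 13 of 14 were named. A 111-droplet cluster led by Gm42418 and Lars2 stayed unnamed. The Müller-like cluster was clustered again, and its 84 droplets led by Opn1sw and Arr3 were left out. Both steps were set after the leading genes were seen. The members and lists were chosen with earlier results of these data known.

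With 1 library a condition there was no test across samples. Ratios carry exact conditional binomial and levels exact Poisson 95% intervals, and shares of droplets exact binomial ones. A count of 0 was bounded at 3 UMIs. The call rule, free RNA estimates and alternatives are given with the results. Named genes were all 9 members in every class, list genes that were called, and the 3 genes most correlated with Rpe65, Rlbp1, Rbp3 and Rdh10. The script was tested on simulated data. Some genes of the marker and retinoid lists are not reported here by name.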

Additional observations from a re-analysis of the deposited data

Results flagged for a closer look

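Some genes differed in opposite directions in different classes under the same contrast, and none of these differences between classes was tested, since each condition had 1 library. Rdh10 had a log2 ratio (light damage over control) of 0.70 in high-unspliced rods, but -0.92 in RPE-like and -1.35 in Müller-like droplets. Within the Mir124a-1hg-led cluster of high-unspliced rods, which both libraries shared, its ratio was -0.77 (95% interval -1.45 to -0.015). Rbp3 had a log2 ratio of 0.78 in cone-like droplets, 0.73 in low-unspliced and 0.73 in high-unspliced rods, but -1.03 in Müller-like droplets, where rod transcripts as a whole were lower too.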

How the results depend on the processing

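Rpe65 in RPE-like droplets kept its direction under every alternative run, with log2 ratios from -1.23 to -0.97; it fell short of 2-fold only where the mean over droplets was taken. Rbp3 ranged from 0.57 to 0.83 in low-unspliced and from 0.55 to 0.93 in high-unspliced rods, Lrat in RPE-like droplets from -0.16 to 0.14, and Rdh10 there from -0.99 to -0.46. Alternatives with all UMIs as the denominator, the whole Müller-like cluster, or without the light damage RPE cluster were chosen after seeing the data. Counts of called genes moved as follows. In RPE-like droplets, Rpe65 was the 1 gene called with free-RNA-rich droplets left out, at resolution 2, with the retinoid genes in the clustering, and without doublet removal. In Müller-like droplets 2 were called with unspliced UMIs added, with the retinoid genes in the clustering, at a minimum of 1000 UMIs and at a mitochondrial limit of 5%, and 1 relative to the median of the 224 genes with at least 50 UMIs in each library. With the whole cluster, Rgr, Abca4 and Rbp3 were called higher there, and Rlbp1 and Rdh10 lower. Those above free RNA there were 1, 3 and 1 under the retinoid, 1000 UMI and mitochondrial settings. In cone-like droplets 3 were called by the mean over droplets, and 2 with unspliced UMIs added, free RNA subtracted, all UMIs as the denominator, or free-RNA-rich droplets left out. In low-unspliced rods 0 were called with free RNA subtracted or at 1000 UMIs, and 8 lay above free RNA with free-RNA-rich droplets left out. In rods those droplets were picked by the same RPE genes that set the free RNA level. Leaving them out lowers that level by construction, so the count of 8 is not a check of it. In high-unspliced rods 0 were called with unspliced UMIs added, 3 at resolution 2, and 2 with rods split at 25%, the retinoid genes in the clustering or a 5% mitochondrial limit. The gene called there changed as well. By the mean over droplets and with all UMIs as the denominator only Rdh5 was called, as higher. At a minimum of 1000 UMIs only Rpe65 was called, as lower. With the retinoid genes in the clustering Lrat and Rdh5 were called higher. Rlbp1 was not called under any of these 4 settings. Among called values, the sign turned for Rdh5 in low-unspliced rods with free RNA subtracted (-0.039), and for Rbp3 in Müller-like droplets with the whole cluster (1.74), the retinoid genes in the clustering (3.89) and the 5% mitochondrial limit (3.95), the last 2 with 1 light-damaged droplet. Values that were not called changed sign as well. In cone-like droplets these were Rbp3 with free RNA subtracted (-0.34), and Rdh12 (1.99) and Abca4 (0.76) with free-RNA-rich droplets left out. In low-unspliced rods Rgr changed sign with free RNA subtracted (-0.096), and in high-unspliced rods Rgr reached 0.49 by the mean over droplets. Lrat and Rlbp1 in RPE-like droplets, Abca4 in both rod classes and Rdh10 in low-unspliced rods, all near 0, took either sign. Rbp3 in RPE-like droplets ranged from -1.02 to 0.43, and by the mean over droplets it was called lower. Without doublet removal the Müller-like class held 0 control droplets and gave no value. Causes of these shifts were not tested. No paired analysis was possible because each condition had 1 library, and no library could be left out.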
